A study of Mus musculus with 18 samples.

Results

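The 38 genes described here are targets of the transcription factor p53, followed in the anterior and posterior axis of mouse embryos with and without conditional deletion of Meis1 and Meis2. They were chosen by symbol from a list of p53 targets, and all 38 were found among the 53465 gene identifiers of the count table. The list was proposed with the DKO against control values of these same libraries in view, so those values are given below as a description and support nothing. By role, 4 members belong to the feedback on p53, 9 to cell cycle arrest, 13 to apoptosis, 5 to DNA repair and 7 to metabolism and stress.

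In mammals p53 is held low by Mdm2, which marks it for degradation, and by Mdm4, which blocks its activity. Damaged DNA, a shortage of nucleotides or a disturbance of ribosome assembly releases p53, which then binds DNA as a tetramer and raises the transcription of genes that halt the cell cycle, trigger apoptosis, repair DNA or change metabolism. Mouse embryos at this stage are known to be sensitive to p53, and its stabilisation disturbs the neural tube, the neural crest and the axial skeleton.

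RNA was sequenced from 9 embryos at E9 with 20 to 24 somites, each dissected into 2 pieces, giving 18 libraries. The axial bud and the youngest somites made up the posterior piece, and the remaining axis with somites made up the anterior piece. The 5 control embryos carry no further genotype in the labels. In the 4 double knockout (DKO) embryos Meis1 and Meis2, which encode homeodomain transcription factors, were deleted by Delta1Cre, a recombinase driven by the Notch ligand gene Delta1. Deletion is therefore limited to descendants of cells that used the Delta1 driver, and each piece also holds other cells. The study asked which Meis targets take part in anterior-posterior patterning of the axial skeleton. Each region therefore has 5 control and 4 DKO libraries, and a replicate number names the same embryo in both regions. The pieces were assigned to embryos by genotype, labelled sex and somite count, a combination unique to each embryo.

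The promoters of 29 members are in the RefSeq table for GRCm38.p6, from 250 bases before to 50 after the annotated start. The p53 half-site, whose 10-base consensus reads the same on both strands, was searched in each. It was found in 11 of these 29 members (37.9%) and in 9.55% of all 27025 genes with an entry. A pair of half-sites separated by at most 13 bases was found in 1 member, Cdkn1a, and in 20 genes of the table (0.074%). A match describes letters in this window and is not a measured binding site, and a window without one says nothing about p53. The sequences around the half-sites of 5 members are printed because Cdkn1a, Mdm2, Ccng1 and Bax are textbook targets and Inka2 had the widest posterior difference between the genotypes. They lie at chr17:29090896-29090947 on the plus strand (Cdkn1a, first half-site 73 bases before the start), chr10:117710925-117710954 on the minus strand (Mdm2, 186 bases before), chr11:40755452-40755481 on the minus strand (Ccng1, 185 bases before), chr7:45467080-45467109 on the minus strand (Bax, 201 bases before) and chr3:105705367-105705396 on the plus strand (Inka2, 81 bases before). None of the 5 overlaps a GENCODE exon. They read 5′ to 3′, with the half-sites in capitals, as follows.
Cdkn1a: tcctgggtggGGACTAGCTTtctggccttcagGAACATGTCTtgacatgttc
Mdm2: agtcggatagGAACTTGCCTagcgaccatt
Ccng1: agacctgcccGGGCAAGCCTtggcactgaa
Bax: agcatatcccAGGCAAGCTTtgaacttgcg
Inka2: ctgtctgcccGGGCTTGTCTgccagcaggg
The other members with a half-site in this window were Gadd45a, Aen, Ei24, Rps27l, Sesn1 and Polk.

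The libraries held 12.7 to 38.2 M expected counts (M, megacounts), so that a floor of 3 counts lay between 0.0786 and 0.237 CPM (counts per megacount of the library). Meis1 averaged 125 ± 8.64 CPM (SD, n = 5) in anterior controls, 102 ± 9.50 (n = 4) in anterior DKO, 84.4 ± 15.2 (n = 5) in posterior controls and 57.5 ± 11.8 (n = 4) in posterior DKO libraries, and Meis2 averaged 190 ± 10.0, 143 ± 11.3, 143 ± 16.7 and 99.4 ± 11.3 CPM. The means of both genes were lower in DKO and neither was absent, but none of the 4 comparisons passed (adjusted p = 0.123 and 0.336 for anterior and posterior Meis1, 0.0522 and 0.196 for Meis2, edgeR). Posterior Meis1 overlapped between the genotypes, since posterior control 2 was at 59.6 CPM and posterior DKO 2 and 4 at 71.9 and 62.2 CPM. The counts do not show which exons were read. Control embryo 1 is labelled female, yet 4 Y-linked genes summed to 151 and 162 CPM in its pieces and Xist did not exceed 0.34 CPM, values like those of the embryos labelled male. Summed markers of the axial bud lay at 289 to 550 CPM in posterior and 26.7 to 38.2 CPM in anterior libraries, and sclerotome markers lay at 219 CPM or more in every library. In bulk tissue, fewer cells of a type and less RNA per cell cannot be told apart.

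Per kilobase of exon, Rps27l, a ribosomal protein paralogue that modulates Mdm2, was the most abundant member, at 167 CPM per kb in anterior controls. Bax, the pore-forming effector of apoptosis, followed at 60.2 CPM per kb and Ddit4, an inhibitor of mTORC1 signalling, at 37.2 CPM per kb. Cdkn1a, which encodes the cyclin-dependent kinase inhibitor p21, was at 4.84 CPM per kb, and Mdm2 at 11.9 CPM per kb. At the low end stood the phosphatase gene Ptprv at 0.0746 CPM per kb and the autophagy gene Dram1 at 0.105 CPM per kb. These are levels per length, and all CPM values below are levels per gene, scaled over all 18 libraries with trimmed means of M values (TMM). Gdf15, a secreted stress cytokine, reached at most 1.37 CPM in any library and passed the filter on low counts in none of the comparisons of groups. Ephx1 (epoxide hydrolase) passed it only between the anterior genotypes, and the death receptor gene Fas and Dram1 passed it only where posterior DKO libraries took part.

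The comparison of posterior with anterior libraries within the 5 controls asked where along the axis the targets were higher. These regional values did not serve to choose the members, although the same control libraries also enter the comparison with DKO. Targets differed between the regions in both directions: Pmaip1, Perp and Btg2 rose towards the posterior, and Plk3, Inka2, Bbc3 and Ei24 fell. Over all 15294 genes tested with edgeR, 12.1% were higher and 13.3% lower in the posterior at an adjusted p below 0.05. Of 34 members tested, 3 were higher and 4 lower, shares below this background in a fit that leaves out which pieces share an embryo; the fit with the embryo as a block is given below. The median log2 fold change of the members was −0.02, against −0.01 for all genes tested. By role, 1 of 9 arrest genes rose and 2 fell, 2 of 11 apoptosis genes rose and 2 fell, and 0 of 4 feedback, 5 repair and 5 metabolic genes passed. Among those 14, an unadjusted p below 0.05 was found for 1 feedback gene (lower) and 1 repair gene (higher), where 16.9% of all genes were higher and 18.5% lower at that p, and DESeq2 called 0, where it called 13.6% and 13.5% of all genes. Without control embryo 1, whose sex label its transcripts contradict, 3 were higher and 2 lower, where 9.21% and 9.79% of all genes were.

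Among apoptosis genes, Pmaip1, which encodes the BH3-only protein Noxa, an antagonist of Mcl1, differed most. It stood at 1.98, 1.47, 1.55, 1.78 and 1.23 CPM in anterior controls 1 to 5 and at 24.7, 22.2, 13.8, 24.3 and 24.8 CPM in the posterior libraries of these embryos. Every posterior library lay far above every anterior one, and embryo 3 was the lowest of the posterior libraries. The posterior level was 13.6-fold higher (log2 fold change 3.77, SE 0.19, adjusted p = 5.64e-08, edgeR). Perp, a tetraspan membrane protein of desmosomes and a p53 apoptosis effector, stood at 7.53, 6.70, 12.3, 7.52 and 8.93 CPM anteriorly and at 14.5, 14.1, 16.6, 16.5 and 16.9 CPM posteriorly. The regions did not overlap, and anterior control 3 was the closest to the posterior values. The log2 fold change was 0.88 (SE 0.147, adjusted p = 0.000713, edgeR). Perp is also known from stratified epithelia. The summed surface ectoderm markers were 76.2 to 172 CPM in anterior and 199 to 294 CPM in posterior controls, and their part in the Perp difference was not tested.

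Bbc3, which encodes Puma, the other classic BH3-only target, went the opposite way. Its level was 13, 11.5, 11.7, 14.7 and 14.4 CPM in anterior controls 1 to 5 and 11, 9.74, 11, 10.7 and 10.2 CPM posteriorly. The groups were separated by a narrow gap, and the posterior value was lower in 5 of 5 embryos (log2 fold change −0.31, SE 0.0929, adjusted p = 0.0283, edgeR). This call was lost without control embryo 1, 4 or 5 (adjusted p = 0.0742, 0.115 and 0.116). Ei24, an endoplasmic reticulum protein induced by p53, was at 119, 116, 120, 123 and 118 CPM anteriorly and 106, 108, 108, 116 and 102 CPM posteriorly. The difference was small, at −0.14 on the log2 scale (SE 0.0411, adjusted p = 0.0219, edgeR), and it was lost without any 1 of control embryos 1, 2, 3 and 5 (adjusted p = 0.0561 to 0.0964). Bax itself was at 96.3, 99.4, 93.9, 97.7 and 87.0 CPM in anterior and 110, 110, 97.9, 101 and 93.3 CPM in posterior controls 1 to 5, with overlapping groups, and did not pass (log2 fold change 0.11, SE 0.0557, adjusted p = 0.178, edgeR).

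Among arrest genes, Plk3, a stress-activated Polo-like kinase, had the largest regional difference. It was at 22.1, 13.2, 22.0, 19.1 and 22.1 CPM in anterior controls 1 to 5 and at 4.80, 2.66, 5.49, 5.10 and 4.84 CPM in their posterior libraries. Embryo 2 was lowest in both regions, and every anterior library exceeded every posterior one. The log2 fold change was −2.10 (SE 0.195, adjusted p = 6.44e-06, edgeR). Plk3 is also known as an immediate early gene, and the summed immediate early markers were 154 to 188 CPM in anterior and 149 to 175 CPM in posterior controls. Of 10 such markers tested, Jun was lower in the posterior like Plk3 (63.6 against 46.6 CPM, log2 fold change −0.44, adjusted p = 0.00162, edgeR) and Junb higher (4.89 against 8.40 CPM, 0.77, adjusted p = 0.0171), and their part in the Plk3 difference was not tested. Inka2, which encodes an inhibitor of the kinase Pak4, was at 2.21, 1.43, 2.95, 2.12 and 1.94 CPM anteriorly and at 0.659, 0.773, 1.36, 0.646 and 0.915 CPM posteriorly. The regions were apart in controls, and the log2 fold change was −1.30 (SE 0.272, adjusted p = 0.00348, edgeR). Btg2, an antiproliferative cofactor of mRNA deadenylation that is also expressed in neurogenic progenitors, was at 38.9, 25.7, 29.7, 27.7 and 36.1 CPM anteriorly and 54.0, 60.7, 43.5, 38.9 and 47.3 CPM posteriorly. It was higher posteriorly in 5 of 5 embryos, although anterior control 1 and posterior control 4 stood at the same level to 3 digits (log2 fold change 0.63, SE 0.137, adjusted p = 0.00426, edgeR).

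In the fit without the embryo as a block, the classic targets Cdkn1a, Mdm2 and Ccng1 missed the threshold between the regions of controls. Cdkn1a was at 19.5, 15.4, 17.6, 17.8 and 15.7 CPM in anterior and 12.8, 18.4, 11.6, 12.6 and 12.4 CPM in posterior controls, with embryo 2 alone higher in the posterior. Its log2 fold change of −0.34 (SE 0.125, adjusted p = 0.0676, edgeR) missed the threshold, and without that embryo it was −0.51 (adjusted p = 0.00153). Mdm2 was at 59.8, 63.9, 59.8, 55.8 and 61.9 CPM anteriorly and 61.5, 56.9, 61.5, 59.4 and 66.8 CPM posteriorly, a log2 fold change of 0.02 (SE 0.0526). In this unblocked fit no p53 feedback gene was called, and neither were the nucleotide excision repair genes Xpc, Ddb2 and Ercc5. With the embryo as a block, Cdkn1a, Ccng1, Xpc and Ercc5 were called (adjusted p = 0.0478, 0.0138, 0.0359 and 0.0446, edgeR), as described below. Ccng1 (cyclin G1), which recruits a phosphatase to Mdm2, was at 47.5, 46.3, 53.7, 54.3 and 49.1 CPM anteriorly and at 39.6, 43.7, 49.4, 46.6 and 43.5 CPM posteriorly. It was lower posteriorly in each of the 5 embryos, by −0.17 on the log2 scale (SE 0.0676, adjusted p = 0.0885, edgeR).

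**Figure D1:**
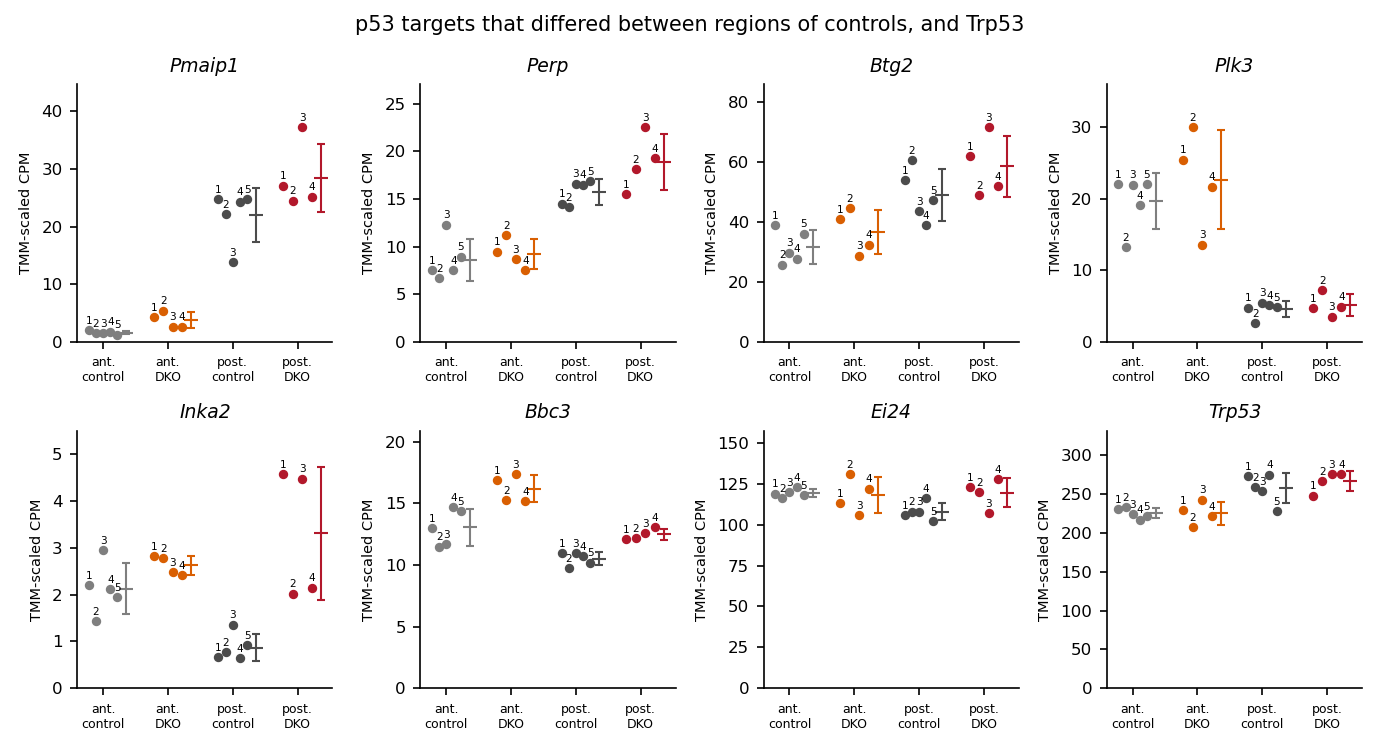
TMM-scaled CPM (vertical axes, from 0) of the 7 members that passed the regional test in controls, and of Trp53, in the 4 groups; points are libraries numbered by embryo, and bars are the mean and SD. Pmaip1 in posterior controls (13.8 to 24.8 CPM) lies above all anterior controls (1.23 to 1.98 CPM), and Plk3 shows the opposite order.

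Since the 2 pieces of an embryo deviated together, the embryo also entered as a block. The blocked edgeR fit called 17 of 34 members between the regions of controls, 7 higher and 10 lower, including the 7 above, where it called 16.1% of all 15294 genes higher and 17.5% lower. Both shares of members lay above this background, whereas those of the unblocked fit lay below theirs, and neither departure was tested. It added Bax (0.11), Ddit4 (0.35), the repair factor Xpc (0.19) and the stress sensor Gadd45a (0.19) as higher. It added Cdkn1a (−0.35), Ccng1 (−0.17), the apoptosome scaffold Apaf1 (−0.13), the RNA-binding protein gene Zmat3 (−0.16), the nuclease gene Ercc5 (−0.15) and the autophagy and apoptosis gene Trp53inp1 (−0.31) as lower, all on the log2 scale. The added differences were thus small, and their adjusted p-values lay between 0.00332 and 0.0478. Ddit4 shows what the block removes: its anterior levels were 141, 78.6, 40.2, 32.0 and 34.4 CPM and its posterior levels 146, 109, 48.3, 42.0 and 52.8 CPM in controls 1 to 5. Embryos 1 and 2 were high in both regions, while in each embryo the posterior library was the higher one.

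Trp53 itself, which encodes p53, was at 231, 233, 224, 217 and 222 CPM in anterior and 273, 259, 254, 275 and 228 CPM in posterior controls. The log2 fold change was 0.20 (SE 0.0542, adjusted p = 0.0181, edgeR), and the call was lost without control embryo 1, 3 or 4 (adjusted p = 0.0672, 0.0693 and 0.0998). Of 19 tested genes upstream of or acting on p53, Trp53 rose and the ubiquitin ligase gene Rchy1 fell (log2 fold change −0.30, SE 0.0572, adjusted p = 0.00188, edgeR), and no damage kinase passed. At an unadjusted p below 0.05 the list had 4 genes higher and 1 lower, and DESeq2 called 3 and 1. A further list of 18 p53 targets outside the 38 had 17 tested genes, of which 5 rose and 4 fell. The ephrin receptor gene Epha2 went from 6.90 ± 2 to 30.8 ± 2.72 CPM (SD, n = 5 each; log2 fold change 2.18) and Sfn, the 14-3-3 sigma gene of epithelia, from 3.65 ± 0.827 to 12.8 ± 1.56 CPM (1.82). Bcl6 (1.14) and Pml (0.33) were also among those that rose, and Kank3 (−0.44), Sesn3 (−0.27), Triap1 (−0.24) and Psrc1 (−0.19) fell. Among 15 cell cycle genes that p53 represses through p21, 0 rose and 3 fell (0 and 7 at an unadjusted p below 0.05, and 0 and 3 by DESeq2): E2f1, Top2a and Mki67 fell, by 0.24, 0.16 and 0.18 on the log2 scale. The shares over all genes, given above for each of these 3 criteria, stand beside these counts, and nothing particular to the lists is read from them.

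Within the 4 DKO embryos, 10 of 36 members were higher and 2 lower in the posterior by edgeR, where 8.76% and 9.7% of 15777 genes were called. The median of the members was 0.21 on the log2 scale, against 0.01 for all genes. The posterior DKO libraries are also those of the comparison with which the members were proposed, so nothing is read from these counts. The 5 genes called in both genotypes were Pmaip1, Perp, Btg2, Plk3 and Bbc3. Their log2 fold changes were 2.93, 1.04, 0.67, −2.14 and −0.37 in DKO, each with the sign found in controls. The DKO calls of Btg2 and Bbc3 were lost without DKO embryo 1 (adjusted p = 0.0578 and 0.124, edgeR) or DKO embryo 3 (0.0531 and 0.0853). The other 7 called in DKO were all higher in the posterior: Gadd45a (0.44), Phlda3 (0.68), Eda2r (0.99), Fas (1.59), Dram1 (1.46), Ddit4 (0.62) and Ak1 (0.41). Of these, Fas and Dram1 were not tested in controls, because they passed the filter on low counts only through the posterior DKO libraries. Gadd45a and Ddit4 were called in controls as well once the embryo was a block (adjusted p = 0.0467 and 0.00332, edgeR). The count was 5 without DKO embryo 1 and 6 without DKO embryo 3, where 11.1% and 13.7% of all genes were called. These side by side values do not show that a regional difference itself differed between genotypes.

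**Figure D2:**
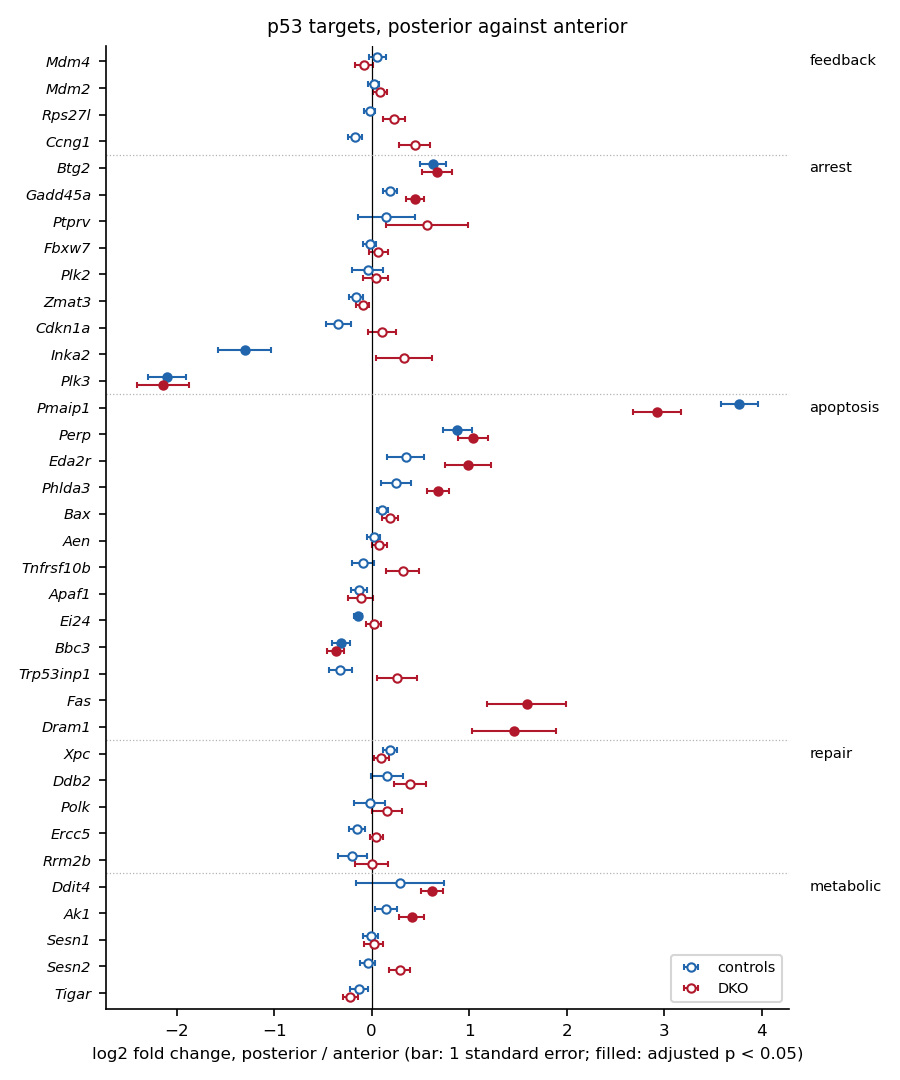
Log2 fold change of posterior against anterior libraries (horizontal axis) with its standard error for each tested member, grouped by role; blue circles are controls, red circles DKO, and filled circles passed an edgeR adjusted p of 0.05. Pmaip1 (3.77 in controls) and Plk3 (−2.10) lie farthest out, and most members lie near 0 in controls.

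The comparison of DKO with control addressed the genes that respond to the loss of Meis1 and Meis2. Because the members were selected on these values, the following is a description. In the posterior piece, 8 of 9 arrest and 12 of 13 apoptosis genes tested had a log2 fold change above 0, with the largest fold changes in Inka2, Ptprv, Fas and Cdkn1a, while the 5 repair genes lay between −0.12 and 0.16. These 13 include Fas and Dram1, which passed the filter on low counts only through the posterior DKO libraries, where they are high, and whose counts are low. In the anterior piece the largest positive values were those of Ptprv, Pmaip1 and Cdkn1a. No member passed an edgeR adjusted p of 0.05 in either region, where 6 of 15238 anterior genes (0.0394%) and 2 of 15936 posterior genes (0.0126%) passed. DESeq2 called 4 members anteriorly (Cdkn1a, Pmaip1, Sesn2 and Bax) and 6 posteriorly (Cdkn1a, Ccng1, Trp53inp1, Sesn2, Inka2 and Ptprv), all higher, where it called 1.94% and 1.01% of all genes.

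At an unadjusted edgeR p below 0.05, 15 of 36 members were higher and 1 lower in the posterior, against 5.27% and 5.74% of all genes. These 36, also counted per embryo below, include Fas (among the 15) and Dram1. Both passed the filter on low counts only through the posterior DKO libraries. In the anterior, 6 of 35 were higher and 4 lower, against 6.41% and 6.61%. Counting members whose DKO and control libraries did not overlap, 9 were higher and 0 lower in the posterior, against 2.16% and 2.12% of all genes, and 5 higher and 0 lower in the anterior, against 2.46% and 2.62%. The median log2 fold change was 0.21 in the posterior (0.01 over all genes), with 28 of 36 members above 0 (77.8%, against 52.4% of all genes). It was 0.04 in the anterior (0.00 over all genes), with 19 of 35 above 0, as were 7625 of all 15238 genes. By role, the posterior medians were 0.17 for feedback, 0.26 for arrest, 0.26 for apoptosis, −0.08 for repair and 0.01 for metabolic genes, and the anterior medians were 0.01, 0.21, 0.11, −0.12 and −0.06.

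Cdkn1a (chromosome 17, 29090976 to 29100727), the main effector of p53-dependent G1 arrest, was apart in both regions. Its levels in the anterior pieces of DKO embryos 1 to 4 were 26.5, 27.9, 23.1 and 27.6 CPM, all above the highest anterior control at 19.5 CPM. The posterior DKO libraries stood at 33.5, 20.8, 32.5 and 26.4 CPM, above the highest posterior control at 18.4 CPM. The log2 fold changes were 0.61 (SE 0.0895) and 1.06 (SE 0.167). In controls Cdkn1a was mostly higher in the anterior piece, whereas in DKO embryos 1 and 3 it was higher in the posterior piece.

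Ptprv, whose product takes part in p53-dependent cell cycle exit, was scarce in controls, with 6 to 23 counts per library. It was at 0.340, 0.387, 0.699, 0.402 and 0.777 CPM in anterior and 0.606, 0.515, 0.605, 0.510 and 0.588 CPM in posterior controls. The DKO libraries held 1.69, 0.411, 2.02 and 1.17 CPM anteriorly and 2.84, 1.19, 2.19 and 1.69 CPM posteriorly. Anterior DKO 2 alone stayed within the anterior control range, and all posterior DKO libraries were above all posterior controls (log2 fold change 1.80, SE 0.284; anterior 1.38, SE 0.434). Inka2, whose control levels are given above, was at 2.83, 2.78, 2.48 and 2.42 CPM in anterior and 4.58, 2.02, 4.48 and 2.15 CPM in posterior DKO libraries. The posterior groups were apart (log2 fold change 1.94, SE 0.333) and the anterior groups overlapped (0.32, SE 0.203). Its anterior excess in controls was thus not seen in DKO embryos 1 and 3, where the posterior library was the higher one.

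Among the other arrest genes, Gadd45a averaged 18.6 ± 1.29 CPM (SD, n = 5) in posterior controls and 23.6 ± 2.32 CPM (n = 4) in posterior DKO, a log2 fold change of 0.34 (SE 0.0937). Btg2 was at 40.9, 44.5, 28.7 and 32.4 CPM in anterior and 61.8, 48.8, 71.5 and 51.9 CPM in posterior DKO libraries 1 to 4. Plk3 was at 25.5, 30.0, 13.6 and 21.7 CPM in anterior and 4.73, 7.25, 3.52 and 4.91 CPM in posterior DKO libraries. Both overlapped the controls of the same region, with posterior log2 fold changes of 0.26 (SE 0.141) and 0.16 (SE 0.241). Zmat3 lay slightly higher (0.19, SE 0.0634). Fbxw7, a subunit of a ubiquitin ligase for cyclin E, was level (0.05, SE 0.0925), and the Polo-like kinase gene Plk2 lay lower in DKO (−0.22, SE 0.139).

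In the feedback group Ccng1 was the member that stood out. Its anterior DKO levels of 57.9, 48.6, 56.7 and 48.4 CPM overlapped the controls, while posterior DKO libraries 1 to 4 were at 92.8, 51.8, 79.0 and 62.8 CPM, above the highest posterior control at 49.4 CPM. The log2 fold changes were 0.08 (SE 0.0716) and 0.68 (SE 0.142). Mdm2, the textbook feedback target, was at 64.1, 62.9, 61.0 and 58.4 CPM in anterior and 69.4, 66.7, 69.8 and 56.7 CPM in posterior DKO libraries, overlapping the controls in both regions (0.03, SE 0.0481, and 0.10, SE 0.071). Rps27l averaged 134 ± 9.63 CPM (SD, n = 5) in posterior controls and 158 ± 30.7 CPM (n = 4) in DKO, its highest value of 202 CPM being in DKO 4. Mdm4 lay lower in DKO in both regions, by −0.16 (SE 0.049) and −0.31 (SE 0.113) on the log2 scale.

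**Figure D3:**
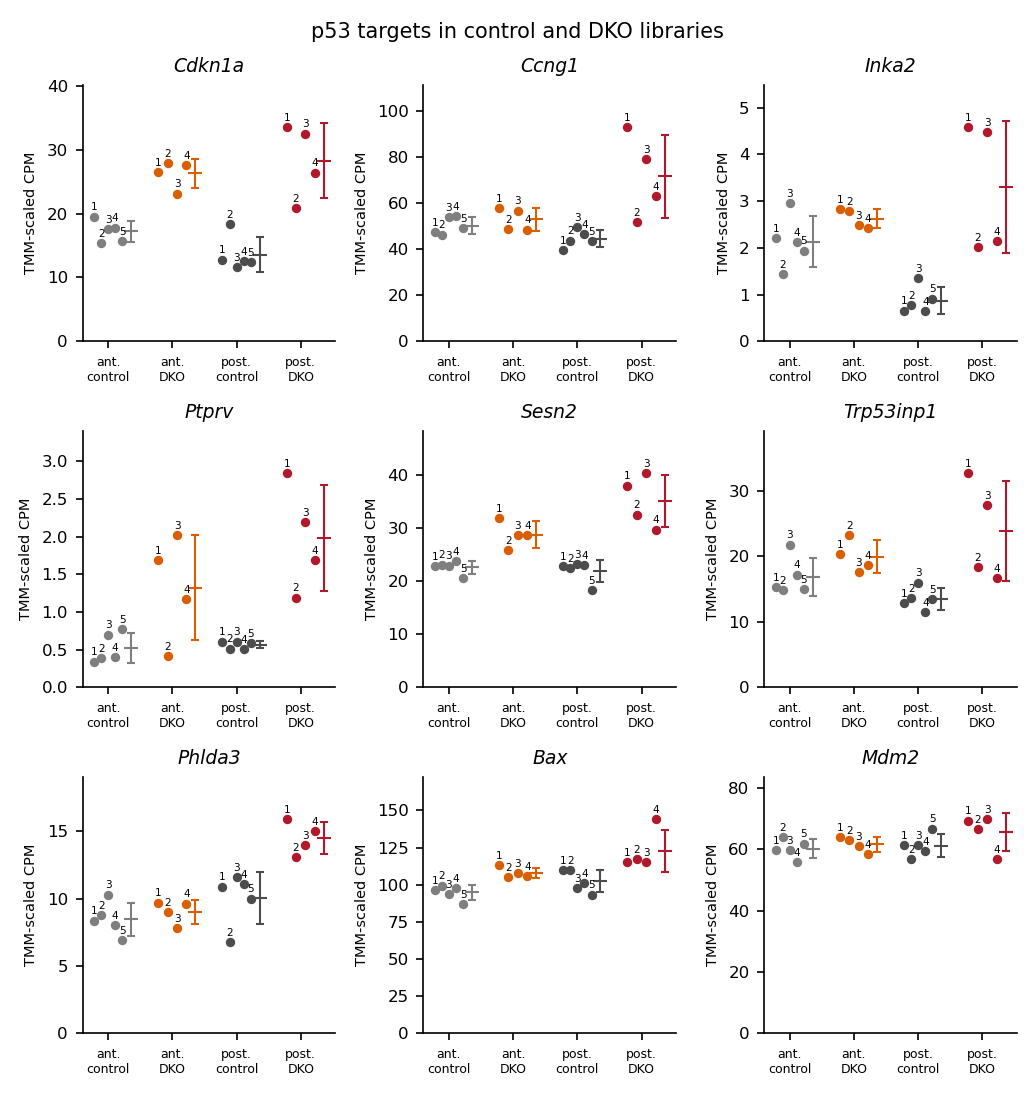
TMM-scaled CPM (vertical axes, from 0) of 8 members whose control and DKO libraries did not overlap in at least 1 region, and of Mdm2, in the 4 groups; points are libraries numbered by embryo, and bars are the mean and SD. Posterior Cdkn1a is at 20.8 to 33.5 CPM in DKO and at 11.6 to 18.4 CPM in controls, and Mdm2 overlaps between all groups.

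Of the BH3-only genes, Pmaip1 lay higher in anterior DKO libraries, at 4.29, 5.40, 2.65 and 2.62 CPM, than in any anterior control (at most 1.98 CPM). Its posterior DKO levels of 27.1, 24.5, 37.2 and 25.2 CPM reached into the control range. The log2 fold changes were 1.22 (SE 0.251) and 0.37 (SE 0.18), and even the highest anterior DKO library stayed below the lowest posterior library of any embryo. Bbc3 was at 16.9, 15.3, 17.4 and 15.2 CPM in anterior and 12.1, 12.2, 12.6 and 13.1 CPM in posterior DKO libraries. It was apart in both regions by a modest margin (0.31, SE 0.0963, and 0.25, SE 0.0871), with its anterior excess kept. Bax was at 113, 105, 108 and 106 CPM in anterior and 115, 117, 115 and 144 CPM in posterior DKO libraries, again apart in both regions and again by little (0.18, SE 0.0453, and 0.26, SE 0.0837).

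Trp53inp1, which promotes autophagy and p53-dependent death, was at 15.3, 14.8, 21.8, 17.2 and 15 CPM in anterior and 12.9, 13.6, 16, 11.5 and 13.5 CPM in posterior controls. The DKO libraries had 20.3, 23.3, 17.6 and 18.7 CPM anteriorly and 32.7, 18.4, 27.8 and 16.7 CPM posteriorly. The genotypes were apart only in the posterior (log2 fold change 0.83, SE 0.187; anterior 0.25, SE 0.127). Phlda3, an inhibitor of Akt, was at 8.38, 8.79, 10.3, 8.04 and 6.93 CPM in anterior and 10.9, 6.78, 11.6, 11.1 and 10.0 CPM in posterior controls. Its DKO values were 9.71, 9, 7.79 and 9.63 CPM anteriorly and 15.9, 13.1, 14 and 15 CPM posteriorly, apart only in the posterior (0.52, SE 0.148; anterior 0.09, SE 0.121). The death receptor genes had wider spreads: posterior Eda2r ranged from 4.18 to 6.05 CPM in controls and from 5.88 to 12.2 CPM in DKO (0.76, SE 0.222), and posterior Fas averaged 0.531 ± 0.0751 CPM (SD, n = 5) and 1.15 ± 0.468 CPM (n = 4) (1.09, SE 0.337). Tnfrsf10b had log2 fold changes of −0.25 (SE 0.114) in the anterior and 0.15 (SE 0.157) in the posterior, with overlapping groups in both. The nuclease gene Aen (0.10, SE 0.0616) and Apaf1 (−0.03, SE 0.127) differed little in the posterior. Perp was at 9.46, 11.2, 8.71 and 7.49 CPM in anterior and 15.5, 18.1, 22.5 and 19.3 CPM in posterior DKO libraries 1 to 4 (posterior 0.26, SE 0.116). Ei24 was at 113, 131, 106 and 122 CPM in anterior and 123, 120, 107 and 128 CPM in posterior DKO libraries (posterior 0.15). Both overlapped the controls in each region, and the 2 regions of DKO overlapped for Ei24 but not for Perp.

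Repair genes overlapped the controls in both regions and lay below 0 in 5 of 5 cases in the anterior. Polk, a translesion polymerase, Rrm2b, a subunit of p53-inducible ribonucleotide reductase, Xpc, Ddb2 and Ercc5 had anterior log2 fold changes of −0.27, −0.12, −0.02, −0.35 and −0.03, and posterior ones of −0.08, 0.08, −0.11, −0.12 and 0.16. The anterior values of Ddb2 (SE 0.17) and Polk (SE 0.119) were the lowest, and at an unadjusted edgeR p below 0.05 Polk alone passed (0.0469, adjusted p = 0.377). Of the metabolic genes, Sesn2, a stress-induced inhibitor of mTORC1, was the one that was apart. It was at 22.8, 23.1, 22.9, 23.8 and 20.5 CPM in anterior and 22.8, 22.4, 23.2, 23.0 and 18.3 CPM in posterior controls. In DKO libraries it was at 31.9, 25.8, 28.6 and 28.7 CPM anteriorly and 38, 32.5, 40.3 and 29.7 CPM posteriorly, apart in both regions (0.35, SE 0.0751, and 0.68, SE 0.107). Its paralogue Sesn1 lay at −0.10 (SE 0.0722) and −0.08 (SE 0.0936), and Tigar, a fructose bisphosphatase that restrains glycolysis, at 0.10 (SE 0.0865) and 0.01 (SE 0.0871). Ephx1 was at 0.832 ± 0.443 CPM (SD, n = 5) in anterior controls and 0.390 ± 0.156 CPM (n = 4) in DKO (−1.03, SE 0.461). The adenylate kinase gene Ak1 stood at −0.02 (SE 0.107) and 0.24 (SE 0.129), and Ddit4, with its wide spread among controls, at −0.37 (SE 0.39) and −0.04 (SE 0.338).

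**Figure D4:**
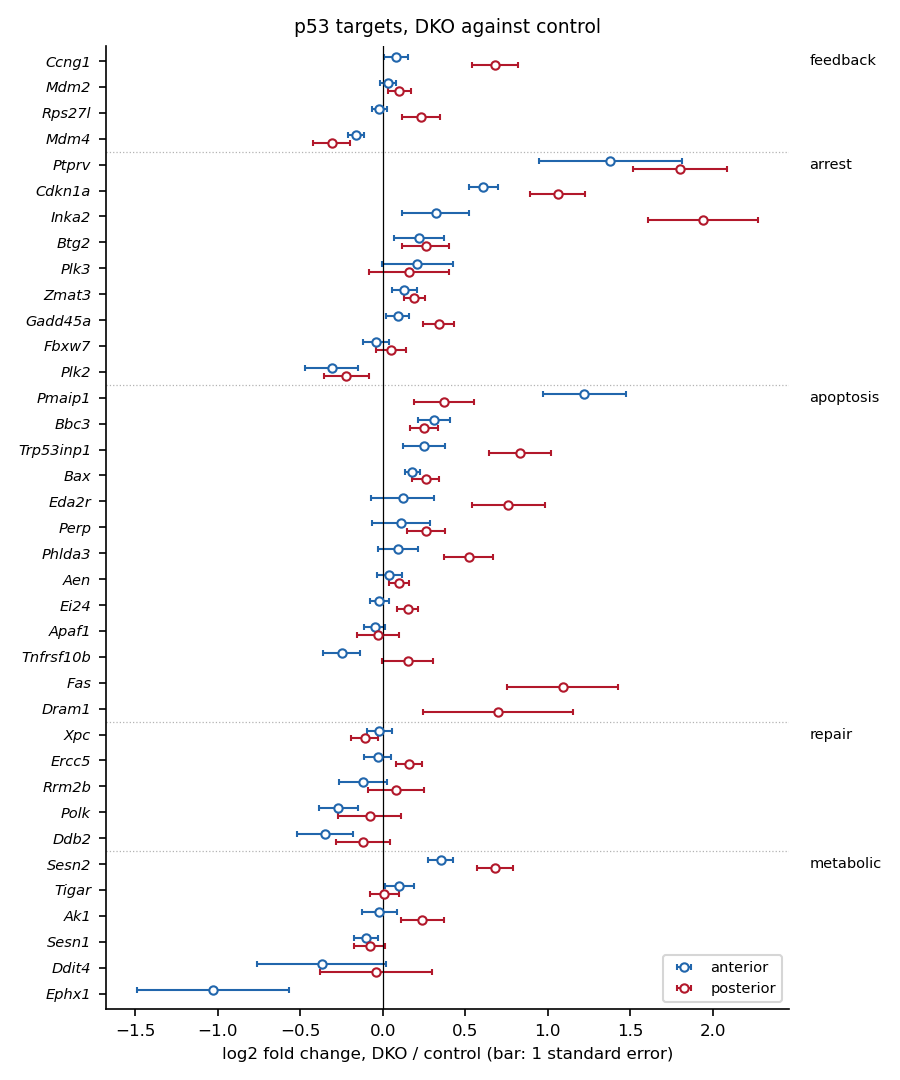
Log2 fold change of DKO against control (horizontal axis) with its standard error for each tested member, grouped by role; blue circles are the anterior and red circles the posterior piece. In the posterior Inka2 (1.94), Ptprv (1.80) and Cdkn1a (1.06) lie highest within the arrest group, and the posterior values of repair genes lie between −0.12 and 0.16.

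The posterior DKO embryos were not alike. Embryos 1 and 3 held the 2 highest posterior values of 16 of 36 members, among them Cdkn1a, Ccng1, Ptprv, Inka2, Trp53inp1 and Sesn2, and of 19.0% of all genes. Embryos 2 and 4 held them for 5 members (Bax, Ddb2, Gadd45a, Plk3 and Xpc) and 19.1% of all genes, and embryos 1 and 4 for 8 members and 14.8%. Each of the other 3 pairs of embryos held them for 1 or 3 members. Embryos 1 and 3 are labelled female, with 22 and 20 somites, and embryos 2 and 4 male, with 24 and 23 somites. Meis1 in these posterior libraries was at 49.1, 71.9, 46.7 and 62.2 CPM in embryos 1 to 4, and Meis2 at 97.4, 116, 93.2 and 91.1 CPM, lowest in embryo 4. Sex, stage and remaining Meis expression cannot be told apart over 4 embryos. In the posterior, 23, 16, 19 and 19 of 36 members lay above every control in DKO libraries 1 to 4, where 17.8%, 20.0%, 16.5% and 29.4% of all genes did. Library 4, with the widest deviation over all genes, also had 7 members below every control, where 30.1% of all genes were, and the others had 1 or 2, where 15.4% to 16.4% were. In the anterior the corresponding numbers above every control were 11, 12, 8 and 9 of 35, where 19.2%, 19.7%, 19.5% and 14.5% of all genes did, and 5 to 8 members lay below, where 14.8% to 19.1% of all genes did.

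**Figure D5:**
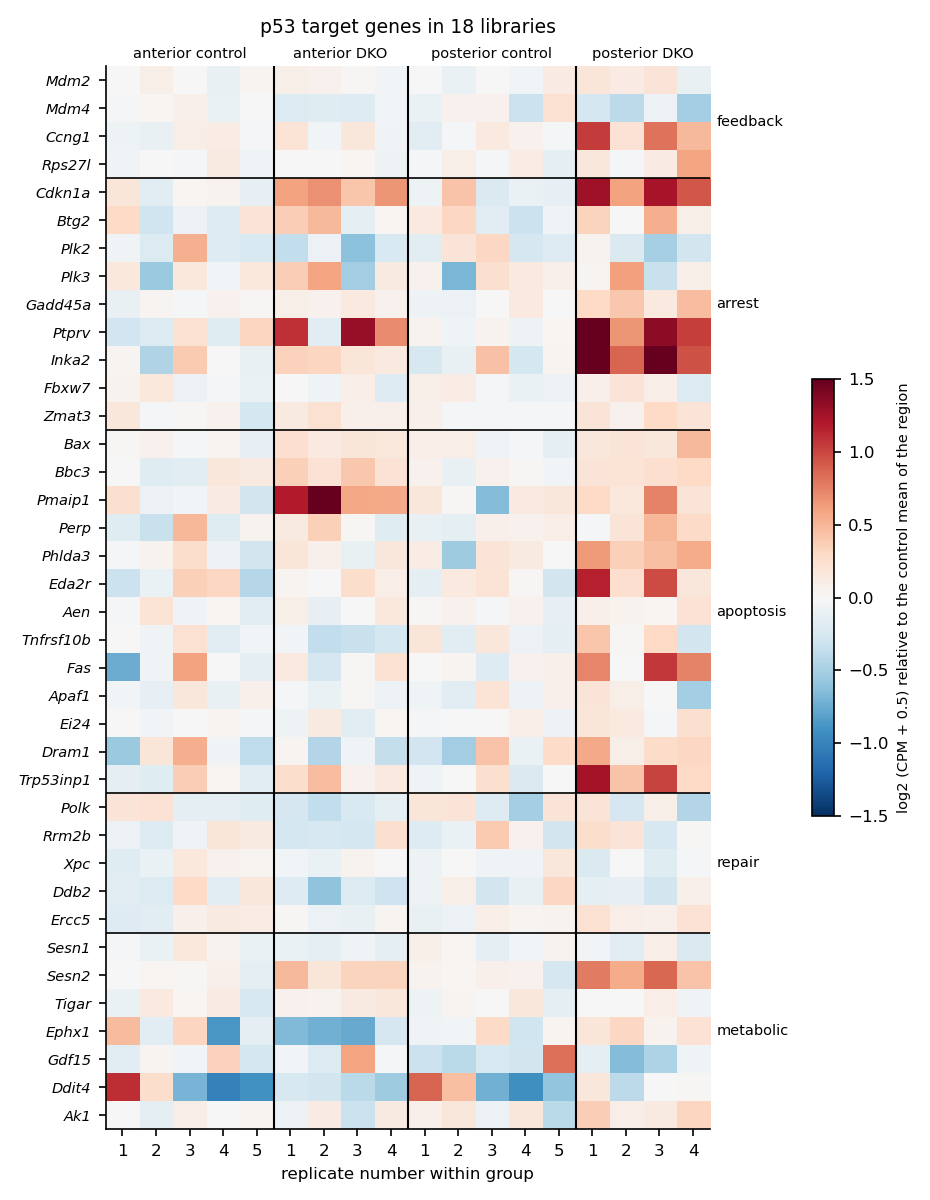
Log2 of CPM plus 0.5 relative to the mean of the controls of the same region (colour, limited to ±1.5) for all 38 members (rows, by role) in the 18 libraries (columns, numbered by embryo within group). Cdkn1a, Ptprv, Inka2, Trp53inp1 and Sesn2 are deepest red in posterior DKO libraries 1 and 3, and the repair rows show no such colouring.

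The interaction of region and genotype compares the difference between DKO and control in the 2 pieces. It is built from the values with which the members were proposed, so the members' counts are again a description and support nothing. Of 37 members tested, 0 passed an edgeR adjusted p of 0.05, as did 0 of all 16428 genes (0.0%). At an unadjusted p below 0.05, 8 members were more raised in the posterior and 1 in the anterior, where 3.45% of all genes passed in either direction. DESeq2 called none of the members and 0.0609% of all genes. The largest interaction values in the posterior direction were 1.63 (SE 0.401) for Inka2 and 1.63 (SE 0.636) for the low Ephx1, and the value for Pmaip1, −0.84 (SE 0.317), was the single one of the 9 in the anterior direction. For Ccng1 it was 0.61 (SE 0.174): the posterior library was the lower one in 5 of 5 controls, with log2 ratios from −0.26 to −0.08, and the higher one in 4 of 4 DKO embryos, from 0.09 to 0.68.

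The wider pathway was described in the same way. Its counts stand beside the shares over all genes given above for DKO against control (6.41% higher and 6.61% lower in the anterior and 5.27% and 5.74% in the posterior at an unadjusted p below 0.05, and 52.4% above 0 in the posterior), and nothing particular to the lists is read from them. Trp53 was at 229, 207, 243 and 222 CPM in anterior and 248, 267, 276 and 276 CPM in posterior DKO libraries, within or beside the control values (0.00, SE 0.0524, and 0.05, SE 0.0706). None of 19 upstream genes passed the edgeR threshold in either region, and their posterior median was −0.08, with 4 of 19 above 0. At an unadjusted p below 0.05 there were 0 higher and 1 lower in each region, and DESeq2 called 0. Of 17 further targets none passed. At an unadjusted p below 0.05, 4 were higher and 1 lower in the anterior and 5 and 1 in the posterior, and DESeq2 called 1 (lower) and 2 (higher). The medians were 0.04 in the anterior and 0.17 in the posterior, and 13 of 17 lay above 0 in the posterior. Pltp, a phospholipid transfer protein gene, was at 18.4 ± 1.91 CPM (SD, n = 5) in posterior controls and 25.4 ± 0.83 CPM (n = 4) in DKO, and Dcxr, a xylulose reductase gene, at 3.74 ± 0.179 and 6.26 ± 1.18 CPM. Both were apart in the posterior, and Pltp also in the anterior (17.3 ± 1.38 CPM in controls and 22.3 ± 3.03 CPM in DKO). Sesn3 lay lower in DKO in both regions (−0.24, SE 0.0522, and −0.28, SE 0.101). The 15 repressed cell cycle genes had medians of 0.00 and −0.01, and none passed. At an unadjusted p below 0.05, 1 was higher and 1 lower in the anterior and 2 and 1 in the posterior, and DESeq2 called 1 (lower) and 0.

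Summed markers of other cells also differed in range between the genotypes. The 8 sclerotome markers summed to 417 to 464 CPM in anterior controls and 266 to 367 CPM in anterior DKO, and to 394 to 540 and 219 to 407 CPM in the posterior. The 8 neural tube markers were at 482 to 607 and 624 to 672 CPM in the anterior and 264 to 357 and 300 to 392 CPM in the posterior. The 8 surface ectoderm markers were at 199 to 294 CPM in posterior controls and 297 to 368 CPM in posterior DKO. The 11 primitive erythroid markers were at 1540 to 2540 CPM in posterior controls and 1860 to 3840 CPM in posterior DKO. DKO 4 was the highest of these. In the anterior the medians had the reverse order, at 3050 CPM (1080 to 5260) in controls and 2070 CPM (1370 to 2300) in DKO. All 11 erythroid log2 fold changes were below 0 in the anterior and above 0 in the posterior. Macrophage markers summed to at most 18 CPM and the mitochondrial share of counts was 1.05% to 1.62% over all libraries. The summed ranges did not overlap for anterior sclerotome, anterior neural tube and posterior surface ectoderm markers. Of the 8 surface ectoderm markers, only Krt8 was itself apart in the posterior (log2 fold change 0.63, SE 0.135). There 6 of the 8 lay above 0, and Grhl2 (−0.08) and Grhl3 (−0.06) below. No gene of the lists was at 0 in every library of a group. The part of these cells in the values of the members was not tested.

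Some members carry a further limit of counting. Expected counts were fractional in all 18 libraries for 7 members, Gadd45a, Zmat3, Mdm4, Aen, Tnfrsf10b, Rrm2b and Ddb2, at a tolerance of 0.005 counts, as happens where RSEM divides reads between genes. Exons of Ddb2 overlap Acp2 on the opposite strand over 652 bases, and Acp2 averaged 926 counts. Those of Gadd45a overlap E230016M11Rik over 337 bases, and those of Ptprv overlap Gm10535, at 0.27 counts, over 345 bases. Use of the strand in counting is not given in the sources used here.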

How the data were processed

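The 18 libraries of 9 embryos were read from a single end at 61 bp after poly(A) selection, per the labels' protocols. The deposited table holds expected counts per Ensembl gene, which the authors made with cutadapt and RSEM on GRCm38, per the submitters' processing notes; versions are not given in the sources used here. Of 53465 identifiers, 53360 were found in GENCODE M21, which gave symbols. The members and the other gene lists were chosen with earlier results of these data known.

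Rounded expected counts entered edgeR 4.0.16 under R 4.3.3: filterByExpr (minimum count 10, minimum total 15), TMM scaling, glmQLFit and glmQLFTest, with Benjamini-Hochberg adjustment over all genes tested and a threshold of 0.05. Totals were 12.7 to 38.2 M (megacounts), and floors cover counting error only. Comparisons were posterior against anterior within each genotype, DKO against control within each region, and their interaction. The labels give each embryo's pieces the same genotype, sex label and somite number. After group means were removed, the pieces of an embryo correlated at 0.256 to 0.57 over genes in 9 pairs, so the embryo was a block in alternatives. Levels in every library are given for Cdkn1a, Mdm2, Ccng1, Bax and Trp53, for members called between the regions of controls and for members whose genotypes did not overlap in a region. Other genes were named after their values were seen. For 1 gene of the further target list, values are not reported here. Alternatives were relative log expression (RLE) size factors, DESeq2 1.42.0, limma-voom (limma 3.58.1), no filter, all libraries in 1 fit, sex label and somites as covariates, and leaving out each embryo. The code was tested on simulated data.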

Additional observations from a re-analysis of the deposited data

Results flagged for a closer look

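In 6 of 60 groups examined for the named genes, 1 library stood apart from the rest of its group, and chance alone marks about 1 in 20 groups. Cdkn1a was at 18.4 CPM in posterior control 2, against 11.6 to 12.8 CPM in the other posterior controls. Plk3 was at 2.66 CPM in the same library, against 4.80 to 5.49 CPM. Pmaip1 was at 13.8 CPM in posterior control 3, against 22.2 to 24.8 CPM. Bax was at 144 CPM in posterior DKO 4, against 115 to 117 CPM. Sesn2 was lowest in control embryo 5 in both regions, at 20.5 CPM against 22.8 to 23.8 CPM anteriorly and at 18.3 CPM against 22.4 to 23.2 CPM posteriorly.

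For 2 members every control embryo moved one way between the regions and every DKO embryo the other, as did 0.189% of all 16428 genes. Ccng1 was lower posteriorly in 5 of 5 controls and higher in 4 of 4 DKO embryos. The interaction, built from the values with which the members were proposed, gave 0.61 on the log2 scale (SE 0.174, adjusted p = 0.999, edgeR). Ercc5 showed the same directions with smaller steps, from −0.25 to −0.08 in controls and from 0.04 to 0.06 in DKO. These DKO steps were smaller than the SE of its regional fold change in DKO (0.05, SE 0.0693), so their direction is not read. Its interaction was 0.20 (SE 0.108, adjusted p = 0.999, edgeR).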

How the results depend on the processing

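Every single-gene fold change followed over the alternatives kept its sign where it had passed: 978 values stayed on their side of the threshold, 41 crossed it upwards, 21 crossed it downwards and 0 reversed. With the embryo as a replicate block, 17 members were called between the regions of controls in place of 7, as the share of all genes called reached 33.6%; between the regions of DKO the block added Ccng1 (0.41, adjusted p = 0.0166, edgeR), and it added no interaction. Leaving out 1 embryo at a time gave 5 to 7 calls between regions in controls (19.0% to 22.2% of all genes called), 5 to 12 in DKO (11.1% to 16.2%), 0 to 1 for genotype in the anterior (0.00649% to 0.369%), 0 to 4 in the posterior (0.0122% to 0.149%) and 0 for the interaction. The 4 posterior calls came without DKO embryo 2. Where edgeR called 0 members between genotypes, the anterior count was 4 by DESeq2 (1.94% of all genes called), 1 by limma-voom (0.19%), 1 with no filter on low counts (0.274%) and 2 with sex label and somite covariates (0.578%). The posterior count was 6 by DESeq2 (1.01%), 3 with no filter (0.0451%), 6 with all 18 libraries in 1 fit (0.31%) and 1 with the covariates (0.0188%). These covariates use the label of control embryo 1, which its transcripts contradict. The cause was not tested, and as the members were proposed with these contrasts in view, nothing is read from their shares. Members with genotypes apart numbered 5 to 7 in the anterior and 9 to 13 in the posterior when 1 embryo was left out, where 2.87% to 5.11% and 2.84% to 4.78% of all genes were, and 6 and 9 without TMM (2.4% and 1.69%), both alternatives chosen after seeing the data. Bbc3 and Ei24 lost their regional calls in controls with no filter (adjusted p = 0.08 and 0.142, edgeR), and Ei24 also with all 18 libraries in 1 fit (0.0768). Fas, Dram1, Ephx1 and Gdf15, at 8 to 13.1 counts per library on average, are too shallow for their ratios to be read closely. Ptprv, at 6 to 23 counts per control library, shares this limit.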
